A study of Thermothelomyces thermophilus with 6 samples.

Results

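In the thermophilic fungus Myceliophthora thermophila, 117 of 9110 listed genes met a rule for similarly high levels on starch and glucose, at least 8-fold above mycelium without a carbon source. They were chosen from the measured values. The mean of the 2 libraries of a medium had to reach 10 CPM (the read count divided by the library total, times 1000000) on starch and on glucose. Both means had to be at least 8 times the mean without carbon, and starch and glucose had to lie within 2-fold of each other. A set of 19 gene IDs was left out by name, and 0 of these met the thresholds. All 3 comparisons between media therefore entered the choice, and the levels and ratios of the members are given as a description, without a test. The pair of genes given as typical of the set, Mycth_108407 and Mycth_2074571, both belong to it.

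The starch group was mycelium of the strain ATCC 42464 kept for 4 h with soluble starch, the glucose group the same strain kept for 4 h with glucose, and the no carbon group the same strain kept for 4 h without a carbon source. Each group had 2 libraries. All mycelium came from an 18 h preculture at 45 °C in Vogel's salts with 2% glucose and was washed before the transfer. The labels give 2% starch for the starch medium, leave the glucose concentration after the transfer open, and do not say whether the replicates were separate cultures. No library from before the transfer was analysed here, so a low level without carbon can be a fall during starvation as much as a rise on sugar. The RNA came from whole mycelium, in which fewer hyphae with a transcript and less of it per hypha cannot be told apart.

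Filamentous fungi digest starch outside the cell with amylases and glucoamylase and take up the released sugars. Glucose then feeds glycolysis and biosynthesis, and through the repressor CreA (CRE-1 in Neurospora crassa) it turns down genes for other carbon sources. Mycelium without a carbon source slows its growth and recycles its own material. Of the members, only Mycth_104551 has a gene symbol in the RefSeq gene table. This symbol is phy1, a name used for phytase genes, whose products release phosphate from phytate. No product name was used here to check this identity. The remaining members are given by their IDs, since neither the deposited table nor the RefSeq table says what they encode.

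The members made up a small part of the fed transcriptome and a far smaller part of the starved one. The rule fixes this contrast, since its 8-fold bound makes the mean share at least 8 times smaller without carbon. They took 2.49% and 2.62% of the counted reads in the starch libraries, 2.13% and 2.21% in the glucose libraries, and 0.115% and 0.121% in the no carbon libraries. A pair of genes, Mycth_108407 and Mycth_112322, held 52.8% and 52.7% of the members' reads on starch, 45.7% in each glucose library, and 23.4% and 24.8% without carbon. The other members together took 1.17% and 1.24% of all reads on starch, 1.16% and 1.20% on glucose, and 0.0878% and 0.0911% without carbon.

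Most members were of middling abundance on sugar. On the length-corrected scale (RPKM, the CPM divided by the gene length in kilobases), the median member had 30.9 RPKM on starch, 29.2 RPKM on glucose and 2.13 RPKM without carbon. Over the 8718 genes with enough reads to be tested, the median gene had 24.5 RPKM on starch, 20.6 RPKM on glucose and 22.7 RPKM without carbon. By RPKM, 10 of the 117 members were among the 1000 most abundant of the 9110 listed genes on starch, 10 on glucose and 0 without carbon. In starvation 112 of the 117 members ranked below the middle of the list. The 8-fold bound selects genes that are low without carbon, so the low ranks there are no separate result.

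The most abundant member was Mycth_108407 (1437 bases). It had 6169 and 6578 RPKM in the starch libraries, 3392 and 3599 RPKM in the glucose libraries, and 74.4 and 82.4 RPKM in the no carbon libraries. Its rank by RPKM was 2 on starch, 16 on glucose and 1771 without carbon. The media did not overlap, and the no carbon level was still above the median of all tested genes. Its mean was 81.3 times the no carbon mean on starch and 44.6 times on glucose.

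Mycth_112322 (1925 bases) was next, with 2225 and 2263 RPKM on starch, 2537 and 2576 RPKM on glucose, and 83.5 and 94.1 RPKM without carbon. Unlike Mycth_108407, it was highest on glucose, and its rank was nearly equal on the sugars, 31 on starch and 30 on glucose. It kept the highest RPKM of all members in starvation, where it ranked 1574. The ratios to no carbon were 25.3 on starch and 28.8 on glucose.

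Below these, 4 members averaged 356 to 846 RPKM over the fed libraries. The short gene Mycth_2064854 (342 bases) had 574 and 602 RPKM on starch, 1071 and 1136 RPKM on glucose, and 27.6 and 30.02 RPKM without carbon. Mycth_110640 (1383 bases) had 460.4 and 450.7 RPKM on starch, 788 and 764 RPKM on glucose, and 16.8 and 20.2 RPKM without carbon. Both stood higher on glucose than on starch in every library. The other two leaned to starch. Mycth_2294895 (3256 bases) had 468 and 529 RPKM on starch, 365 and 399 RPKM on glucose, and 45.3 and 43.9 RPKM without carbon. Mycth_2308390 (1492 bases) had 436 and 457 RPKM on starch, 266 and 267 RPKM on glucose, and 20.1 and 19.96 RPKM without carbon.

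A further 6 members completed the 12 with the highest RPKM on sugar. Mycth_2299088 showed the steepest ratio among them, 29.6 on starch and 49.8 on glucose. Mycth_115198 and the short gene Mycth_2299316 (369 bases) were also over 15-fold above no carbon on both sugars. Mycth_2293957 and Mycth_2295922 lay close to the limit of the rule, at 8.14-fold and 8.06-fold on starch. Mycth_2300593 was nearly level between the sugars by library totals (1.15-fold higher on glucose with TMM factors, edgeR's scaling), with 298.6 and 302.2 CPM on starch, 298.9 and 302.7 CPM on glucose, and 32.2 and 31.4 CPM without carbon.

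**Figure D1:**
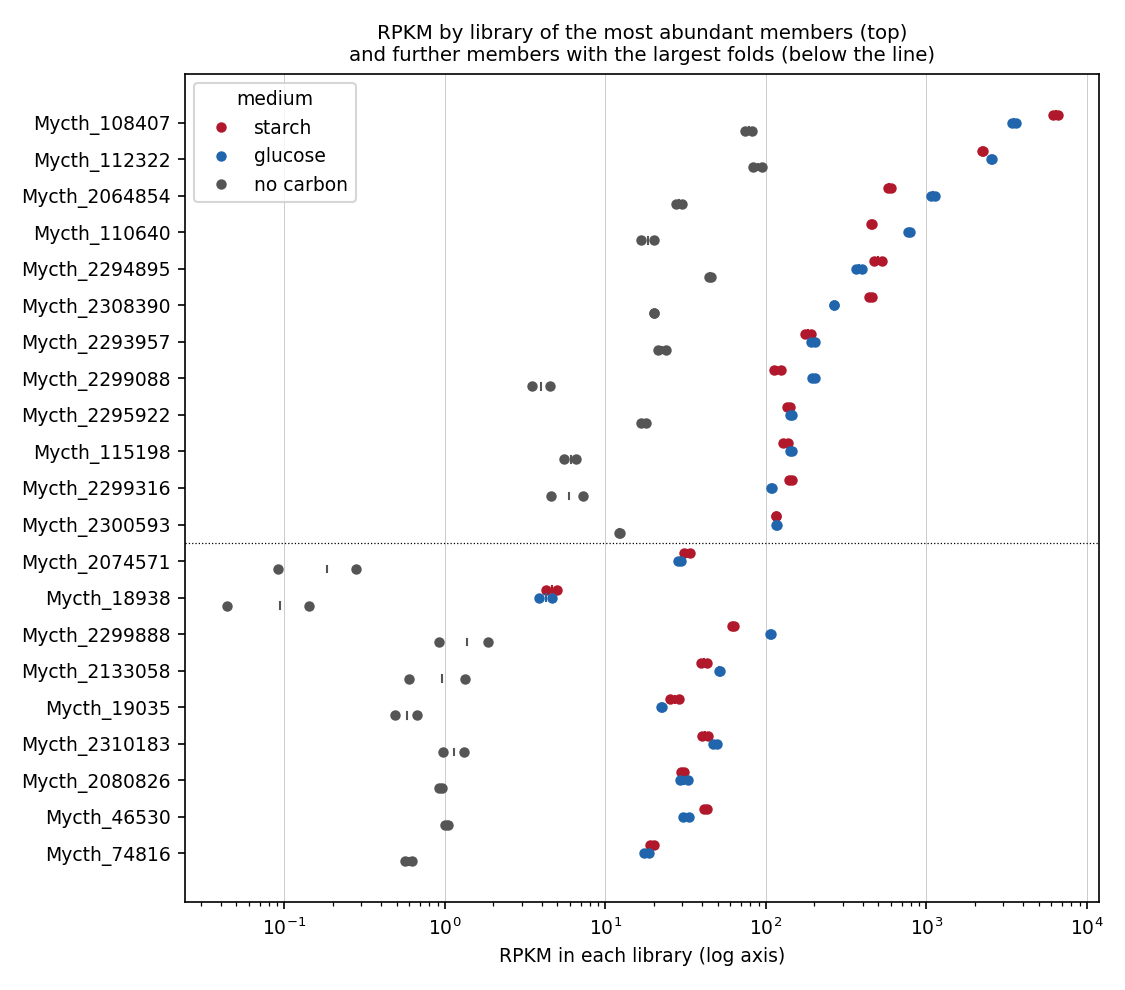
RPKM in each library (log axis) for the 12 members with the highest RPKM on sugar and, below the dotted line, further members with the largest ratios to no carbon. Each point is 1 library and each short bar the mean of the 2 libraries of a medium. The points without carbon lie to the left of all fed points for every gene, and the no carbon libraries of Mycth_2074571 and Mycth_18938 lie far apart.

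The residual level in starvation differed widely among members. In the no carbon mean, 14 members were under 1 CPM, 80 were between 1 and 10 CPM and 23 were at 10 CPM or more. The lowest member had 11 reads over both no carbon libraries, so every member was detected in starvation. For each member the smaller of its ratios to no carbon was taken. This smaller ratio had a median of 22.4 among the members under 1 CPM, 11.9 in the middle group and 9.03 among those at 10 CPM or more. Across the 117 members it went down with the no carbon level (Spearman's rho -0.508), and both measures contain the same no carbon libraries. The rule also builds in part of this order. To reach the floor of 10 CPM on sugar, a member under 1 CPM without carbon needed a ratio above 10. Members at 10 CPM or more without carbon needed only 8. The lowest smaller ratio was 12.7 in the former group and 8.06 in the latter.

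The ratio was steepest for Mycth_2074571 (2025 bases). It had 62.1 and 68.5 CPM on starch, 60.03 and 57.7 CPM on glucose, and 0.183 and 0.564 CPM without carbon. The fed libraries held 1176 to 1574 of its reads, against 4 and 10 reads in the no carbon libraries. The read ratio was 185 for starch over no carbon (95% counting interval 110 to 338) and 166 for glucose over no carbon (98.7 to 304). Against single no carbon libraries, the ratio of a starch library ran from 110 to 374 and that of a glucose library from 102 to 327.

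Mycth_18938 (3156 bases) was low on sugar too, with 13.4 and 15.7 CPM on starch, 12.1 and 14.6 CPM on glucose, and 0.137 and 0.451 CPM without carbon. Its no carbon values come from 3 and 8 reads, the fewest of all members. The read ratio was 52.4 for starch over no carbon (95% counting interval 29.1 to 106) and 48.4 for glucose over no carbon (26.9 to 97.5). These intervals cover counting error only.

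Mycth_2299888 (702 bases) had 43.2 and 44.6 CPM on starch, 74.4 and 75.9 CPM on glucose, and 0.642 and 1.30 CPM without carbon. Mycth_2133058 (847 bases) had 33.5 and 36.5 CPM on starch, 43.5 and 43.3 CPM on glucose, and 0.504 and 1.13 CPM without carbon. The no carbon values come from 14 and 23 reads for Mycth_2299888 and from 11 and 20 reads for Mycth_2133058. Of the 14 members under 1 CPM without carbon, 9 were higher in no carbon replicate 2. Mycth_2121672 was lower there, with 1.19 CPM in replicate 1 and 0.338 CPM in replicate 2. In Mycth_2299888 and Mycth_2133058, as in Mycth_2074571 and Mycth_18938, no carbon replicate 2 stood at least 2 times above no carbon replicate 1. The same was not seen in Mycth_2080826, with 38.2 and 39.9 CPM on starch, 37.5 and 42.5 CPM on glucose, and 1.19 and 1.24 CPM without carbon. Mycth_46530 (2.29 and 2.20 CPM without carbon) and Mycth_74816 (0.687 and 0.621 CPM without carbon) also had close no carbon libraries. Their ratios to no carbon were 41.4 and 32.7 on starch, and 31.0 and 30.2 on glucose, in that order.

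Mycth_19035 (3119 bases) and Mycth_2310183 (3076 bases) were long genes with steep ratios. Mycth_19035 had 78.2 and 90.1 CPM on starch, 69.6 and 70.4 CPM on glucose, and 1.51 and 2.09 CPM without carbon. Mycth_2310183 had 122 and 134 CPM on starch, 143 and 153 CPM on glucose, and 2.98 and 4.06 CPM without carbon. Both were over 35-fold above no carbon on each sugar.

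**Figure D2:**
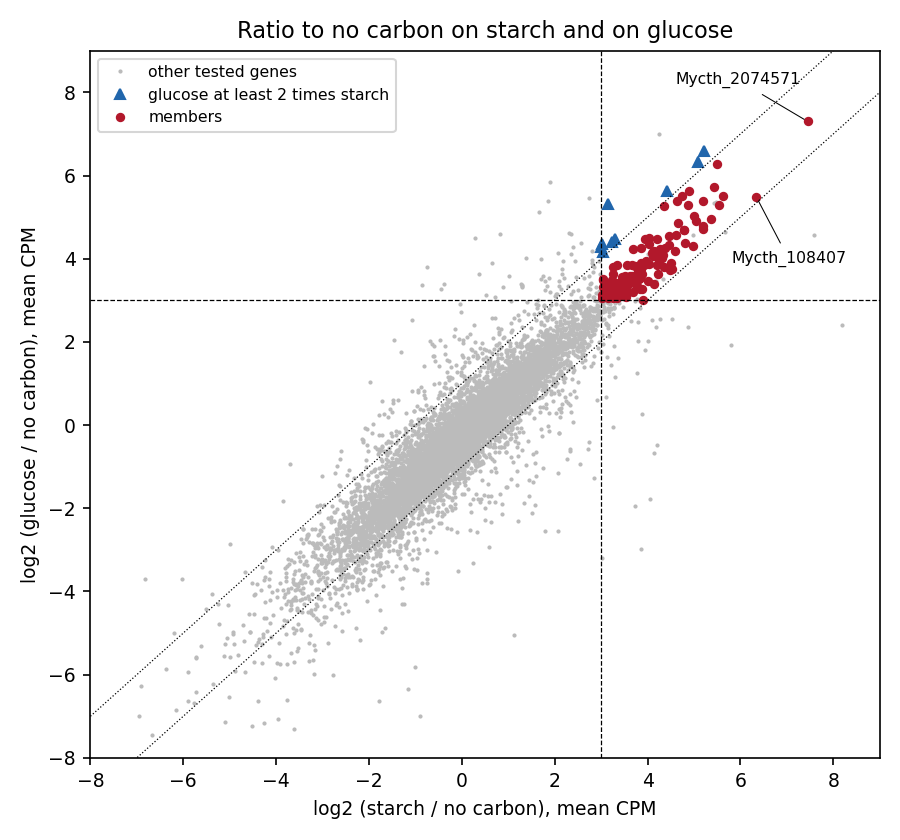
Log2 ratio of mean CPM to no carbon on starch (horizontal) and on glucose (vertical), 1 point per gene, with members in red and the 9 genes that met every bound except the one between the sugars as blue triangles. Dashed lines mark 8-fold and dotted lines mark a 2-fold difference between the sugars; 10 genes with no read in a medium are not drawn and 10 lie beyond the axes.

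The choice reached into a thin edge of the distribution. Of the tested genes, 209 (2.4%) were at least 8-fold higher on starch than without carbon and 221 (2.53%) at least 8-fold higher on glucose. With at least 10 CPM on each sugar, 126 genes met the 8-fold bound on both, and 117 of these were within 2-fold between the sugars. Just inside the 8-fold bound were Mycth_2295922 at 8.06-fold, Mycth_2302447 at 8.10-fold, Mycth_2293957 at 8.14-fold and Mycth_2306542 at 8.19-fold, each by its smaller ratio. Just outside were Mycth_2306991 at 7.93-fold, Mycth_2303736 and Mycth_64095 at 7.92-fold and Mycth_2311140 at 7.91-fold. No gap separates members from other genes, and 37 members had a smaller ratio under 10. All 117 members were called higher by edgeR at an adjusted p under 0.05 on starch and on glucose against no carbon, where 45.3% and 44.8% of all tested genes were called higher. The choice fixes this count.

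The bound between the sugars cut on the glucose side alone. The 9 genes that met all other bounds were at least 2-fold higher on glucose, and 0 genes were at least 2-fold higher on starch. The nearest outside were Mycth_2298894 at 2.15-fold, Mycth_107295 at 2.23-fold and Mycth_112227 at 2.27-fold higher on glucose. The farthest was Mycth_37947, with mean levels of 43.9 CPM (starch), 198.6 CPM (glucose) and 4.97 CPM (no carbon). Nearest inside on the glucose side was Mycth_2064854 at 1.88-fold, and nearest inside on the starch side were Mycth_2302447 at 1.84-fold and Mycth_108407 at 1.82-fold. These ratios are on the CPM scale of library totals.

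The direction between starch and glucose depended on the scaling. On library totals the median gene of all tested had a log2 ratio of starch to glucose of 0.24. With TMM factors (edgeR's scaling by a trimmed mean of log ratios) it was 0.04, a shift of 0.205. The members' median was 0.08 on library totals and -0.13 with TMM factors, which is 0.168 below that of all tested genes on either scale. On library totals 70 members were higher on starch and 47 lower, and with TMM factors 37 were higher and 80 lower. With TMM factors 94 members (80.3%) differed by less than 1.4-fold between the sugars, against 68.3% of all tested genes. The bound of the rule favours small differences.

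The edgeR test called 21 of the 117 members higher on starch than on glucose and 57 lower, at an adjusted p under 0.05 over all tested genes. Of all 8718 tested genes, 36.1% were called higher on starch and 32.5% lower. The rule bounds this contrast too, so these counts are a description.

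At the starch end stood Mycth_2302447 (5141 bases), with 422 and 419 CPM on starch, 229.1 and 228.8 CPM on glucose, and 27.9 and 28.7 CPM without carbon. Starch exceeded glucose 1.84-fold by library totals and 1.59-fold with TMM factors. Mycth_108407 followed at 1.58-fold with TMM factors. The gene phy1 had 82.8 and 83.8 CPM on starch, 50.5 and 53.9 CPM on glucose, and 1.92 and 3.38 CPM without carbon. Its starch libraries were above its glucose libraries, and the ratio was 1.38 with TMM factors. Mycth_2312397 (1.48-fold), Mycth_2308390 and Mycth_2297319 (both 1.45-fold) completed the 6 highest ratios.

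At the glucose end stood Mycth_2064854, with 196 and 206 CPM on starch, 366 and 389 CPM on glucose, and 9.44 and 10.3 CPM without carbon. With TMM factors it was 2.16-fold higher on glucose than on starch, which is outside the 2-fold bound that it met on library totals. Mycth_2299888, Mycth_110640, Mycth_2308266 and Mycth_2299088 were 1.97-fold, 1.96-fold, 1.96-fold and 1.94-fold higher on glucose with TMM factors. No glucose library of these genes overlapped a starch library, although the starch libraries of Mycth_2299088 differed, at 233 and 257 CPM. Mycth_99103 was sixth on the glucose side, and its libraries lay farther apart, at 46.2 and 58.1 CPM on starch, 70.1 and 84.2 CPM on glucose, and 6.10 and 4.91 CPM without carbon.

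**Figure D3:**
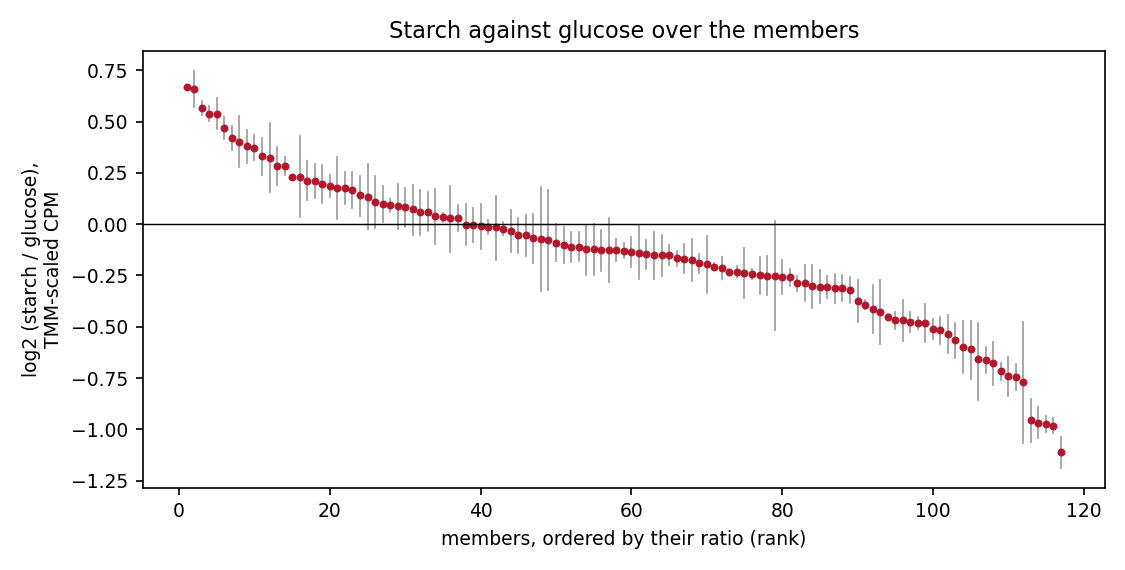
Log2 ratio of starch to glucose in TMM-scaled CPM for the 117 members, in order of the ratio. Points are ratios of means of 2 libraries and lines span the 4 pairings of 1 starch with 1 glucose library; 37 members lie above 0 and 80 below.

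The members were long genes relative to the whole table. Their median length was 2025 bases (quartiles 1515 and 2610), against 1569 bases over all tested genes (quartiles 1037 and 2229). With the tested genes divided into 3 classes of equal size at 1220 and 1987 bases, 15 members fell in the shortest class, 40 in the middle class and 62 in the longest. That is 0.516%, 1.38% and 2.13% of the tested genes of each class. The median smaller ratio to no carbon went the other way, 18.3 in the shortest class, 12.3 in the middle and 11.1 in the longest. The floor of 10 CPM on each sugar is not corrected for length, so at equal RPKM a longer gene meets it more easily. Of the listed genes 6473 met this floor, whereas the tested genes used for comparison were not held to it. With a floor of 10 RPKM in place of 10 CPM, 104 of the 117 members still met the rule, 13 did not, and 1 other gene did. The lengths of that set were not compared, so how much of the length difference comes from the floor was not tested. Over 8708 tested genes with reads in every medium, length and the log2 ratio to no carbon had a Spearman correlation of 0.322 on starch and 0.304 on glucose; these points are genes of the same libraries. After removal of that trend 82 of the 117 members still met the rule, 35 did not, and 15 other genes did.

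**Figure D4:**
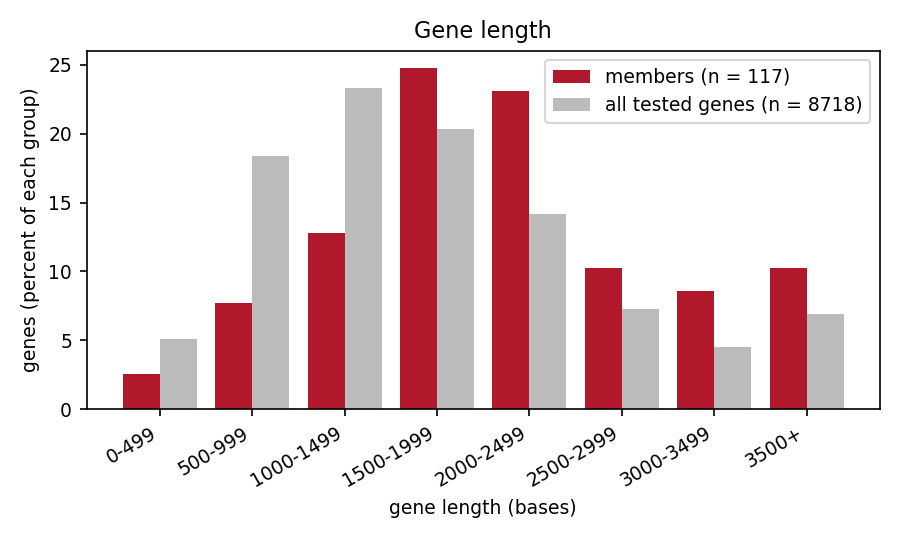
Gene length in bases (horizontal) against the percent of genes in each length bin (vertical), for the 117 members and all 8718 tested genes. Of the members 24.8% fell between 1500 and 1999 bases and 10.3% at 3500 bases or more, against 20.4% and 6.9% of the tested genes. The tested genes were not held to the floor of 10 CPM that members had to reach.

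The share of members beside another member was near the share over all matched genes. All 117 matched a locus of the RefSeq assembly ASM22609v1, whose order of genes was used. Of the members, 4 (3.42%) had another member as direct neighbour, in 2 pairs, and 2.53% of all matched genes had a member beside them. A further pair, Mycth_2133058 and Mycth_2300296, was separated by 1 gene.

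The first pair was Mycth_2299088 and Mycth_2299089. Mycth_2299089 (3703 bases) had 101.4 and 98.5 CPM on starch, 98.1 and 94.6 CPM on glucose, and 3.44 and 4.74 CPM without carbon. It was nearly level between the sugars by library totals (1.11-fold higher on glucose with TMM factors), whereas its neighbour had 233 and 257 CPM on starch, 401 and 422 CPM on glucose, and 7.24 and 9.31 CPM without carbon. The genes beside the pair, Mycth_2299084 and Mycth_39591, were 2.87-fold and 2.41-fold above no carbon on starch and 1.53-fold above it on glucose.

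The second pair was phy1 and Mycth_2310013. Mycth_2310013 (2025 bases) had 51.8 and 56.02 CPM on starch, 46.3 and 49.4 CPM on glucose, and 5.09 and 6.04 CPM without carbon. It was 9.69-fold above no carbon on starch and 8.60-fold on glucose, against 31.4-fold and 19.7-fold for phy1. Next but one to phy1 lay Mycth_59005, with means of 676 CPM (starch), 171.6 CPM (glucose) and 29.4 CPM (no carbon), which met the 8-fold bound on starch alone. On the other side, Mycth_97150 was low on both sugars, at 0.198 CPM on starch and 0.178 CPM on glucose, against 3.12 CPM without carbon.

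The 219 tested non-members directly beside a member had a median log2 ratio of fed media to no carbon of 0.41, against -0.12 over all tested genes. At least 2-fold higher on sugar were 30.6% of these neighbours and 20.9% of all tested genes. Their median length was 1600 bases, close to the 1569 bases of all tested genes. The strand setting of the counting is not given in the sources used here, so reads of overlapping neighbours cannot be told apart.

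**Figure D5:**
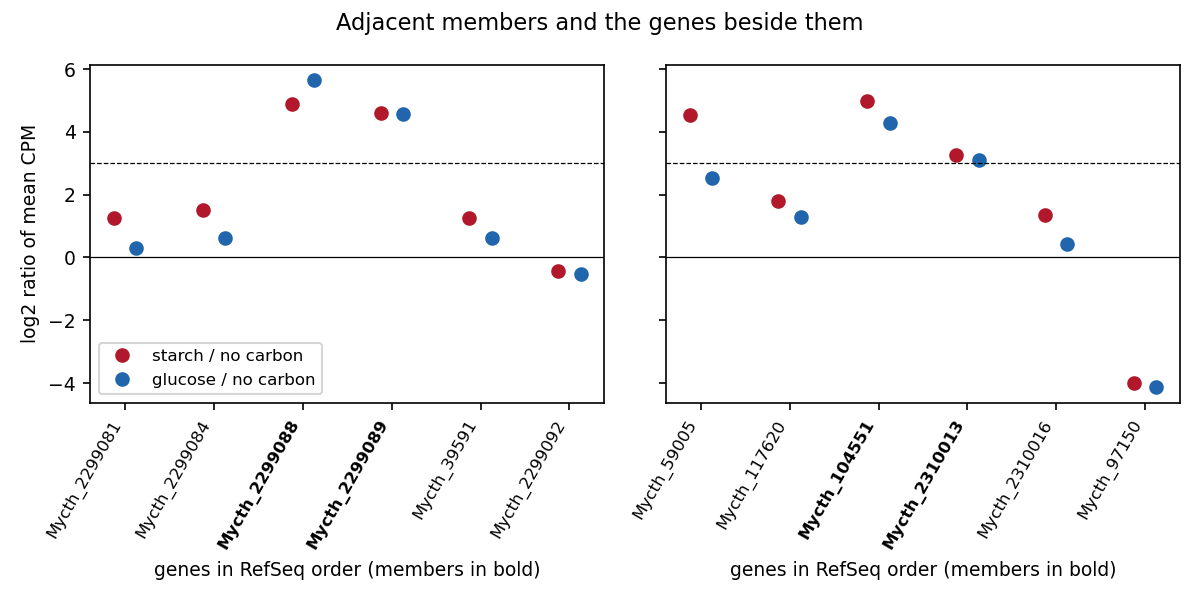
Log2 ratio of mean CPM to no carbon on starch and on glucose for both pairs of adjacent members (bold) and the 2 genes on each side, in RefSeq gene order. The dashed line marks 8-fold; outside the pairs, only Mycth_59005 passes it, on starch alone.

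Replicates of the members agreed less well in starvation than on sugar. The replicate libraries differed by a median of 5.94% of the mean on starch, 5.16% on glucose and 17.1% without carbon. The medians over all tested genes were 4.22%, 4.29% and 4.81%, in the same order. Low read numbers enter this figure. Counting noise alone would give members a median difference of about 10.2% without carbon. Between the lower and upper quartile of the members, 2.05 to 8.33 CPM without carbon, 59 members differed by a median of 17.9% and 1082 other tested genes by 13.2%. In that range 37 members were higher in no carbon replicate 2 and 22 in replicate 1, while the other genes were split 530 and 552. Over all 117 members the split was 71 and 46. In both no carbon libraries the members stayed low. The median ratio of the starch mean was 13.7 to no carbon replicate 1 and 14.1 to replicate 2, and that of the glucose mean was 13.6 and 13.1. Every fed library was at least 8 times every no carbon library in 99 of the 117 members.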

How the data were processed

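RNA was sequenced from 6 mycelium libraries, 2 per medium. The authors deposited read counts and RPKM per gene and library; TopHat2 2.0.8b and HTSeq 0.5.4p2 are named in the submitters' processing notes, and their settings, the build and the annotation are unstated there. The deposited RPKM equalled the count per kilobase over the library total, and gave the gene length (whole bases within 0.001 for 100.0% of 8989 genes). Library totals were 17726204 to 23635336 counts, so 3 reads correspond to 0.127 to 0.169 CPM. Members and named genes were chosen with earlier results of these data known. Named genes were the markers, symbol-bearing members, adjacent members and the 12 highest in RPKM on sugar. The 10 steepest, the 6 at each end between sugars and the 6 highest without carbon were added. Genes nearest the bounds are also named, but that choice added none to the 29 named genes compared under the alternatives.

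Counts of all 9110 genes entered edgeR 4.0.16 (R 4.3.3; filterByExpr, TMM, robust quasi-likelihood fit of all 6 libraries, no covariates, Benjamini-Hochberg over the 8718 tested genes, including all 117 members). A p-value sets the difference between media against the spread of libraries within a medium, and that spread may be technical only. On simulated starch against glucose data (8670 genes tested), 50 genes were changed at each size. Of these, 100% changed by 0.5 on the log2 scale, 94% changed by 1 and 100% changed by 2 were recovered. False calls were 4.37% of all calls. All other genes were simulated with equal means in all media, and changes up and down were balanced. In the measured contrast 5984 of 8718 genes were called, so recovery under such broad change was not tested. Alternatives covered DESeq2 1.42.0, scaling, filters, the bounds, gene length, a replicate block and each library left out. Ignoring letter case, RefSeq locus tags matched the IDs (9087 of 9110). No functional lists were run, because no product names or sequences were used here. Counting intervals are exact Clopper-Pearson intervals. Means are over 2 libraries.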

Additional observations from a re-analysis of the deposited data

How the results depend on the processing

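The number of members (117) was between 112 and 120 with any 1 library left out, 141 after TMM scaling, 138 after RLE scaling and 97 after removal of the gene length trend. It was 407 with the 8-fold bound lowered to 4 and 38 with it raised to 16, as the looser and stricter bounds imply. The other changes of floor, sugar bound or library rule gave 99 to 126. With TMM factors 116 members kept their place and 25 genes joined. The members' median log2 ratio of starch to glucose, 0.08 on library totals, was -0.13 with TMM and -0.15 with RLE factors, and 0.01 to 0.13 with any 1 library left out. Their median log2 ratio of fed media to no carbon, 3.75, was 3.89 after TMM scaling, 3.88 after RLE scaling and 3.49 after removal of the length trend. For 7 of 29 named genes the sign of the ratio between the sugars changed under some alternative; TMM and RLE factors lower this ratio by nearly the same amount in every gene. The sign against no carbon is fixed by the 8-fold bound and says nothing about stability. The counts of all genes called stayed within 1.5 times under every alternative run. Library totals alone moved the split between starch and glucose to 4810 higher and 1701 lower, against 3150 and 2834 with TMM factors. Libraries with the same replicate number in their titles showed no visible shared deviation (correlations of same-numbered deviations -0.029, -0.04 and 0.005). With 2 libraries per medium, this cannot show whether they came from a shared culture or batch. The replicate block gave 7855, 7888 and 6044 calls, against 7846, 7890 and 5984 without it, for starch and for glucose against no carbon and for starch against glucose. For members with few reads in starvation, depth limits how exactly the ratio is known.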
